A study of Homo sapiens with 15 samples.

Results

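The genes described here encode the enzymes of cholesterol and fatty acid synthesis and the proteins that control them. They were taken as 31 named genes: 18 of the sterol branch, 7 of the fatty acid branch, 4 regulators and 2 of lipid handling. Where several probe sets were annotated to a gene alone, the brightest on average over the arrays stood for it. On the array 27 of the 31 had such a probe set, among 11963 genes in all. They were 16 sterol genes, 6 fatty acid genes, the 4 regulators and LPIN1. CYP51A1, FADS1, FDFT1 and STARD4 were not analysed here. The mean of every measured gene lay above the 20th percentile of the arrays in all 6 groups. All 27 were tested, as were all other genes, whatever their level.

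The samples were total RNA of MCF-10A, an established immortalized, non-tumorigenic human mammary epithelial line, in which p63, a p53-related transcription factor of basal epithelium, was lowered or raised. In the knockdown arm, cells received a short hairpin RNA (shRNA) control vector, a hairpin against the DNA-binding domain that all p63 isoforms share (shDBD), or a hairpin against isoforms with the transactivating domain (shTA), with 2 arrays per group. In the overexpression arm, they received an empty vector, ΔNp63α, an isoform without that domain, or TAp63γ, an isoform with it, with 3 arrays per group. RNA was taken after 48 h of infection with a retrovirus or adenovirus, and the labels do not say which virus served which arm. All groups were the same line under standard growth conditions, the labels name a single hairpin per target, and no allele or drug is given for any group. The replicates are called biological but not said to come from separate infections, so every p-value here reflects only how these samples spread, which may be technical. The transcript of the targeted gene was not analysed here, so it did not check the labels.

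Values are log2 expression, differences are log2 ± SE from limma, and a gene is said to have risen or fallen where its p-value, adjusted over all genes tested in that comparison, was under 0.05. Array medians were 7.189 to 7.213 in the knockdown arm and 6.951 to 6.983 in the overexpression arm, so treatments were compared with the vector of their own arm. Replicate arrays correlated at 0.9976 to 0.998 and at 0.9925 to 0.9979. Replicate 3 of ΔNp63α had the lowest mean correlation with its own group, 0.993. The cells carried the defining basal markers, since all 7 measured of 8 lay above the 20th percentile in every group. Their mean level was 12.07 to 12.15 with the shRNA vector and 11.24 to 11.25 with shDBD, where 5 of the 7 fell, and 11.70 to 12.01 with the empty vector against 12.11 to 12.33 with ΔNp63α, where 4 rose and 1 fell, and 12.30 to 12.50 with TAp63γ, where 4 rose and 2 fell. EGFR fell by 0.59 (SE 0.15) with ΔNp63α and ITGB4 by 0.74 (SE 0.13) with TAp63γ. Among 8 luminal markers, KRT18 fell by 0.78 and 0.63 with the isoforms (SE 0.12) and GATA3 rose by 0.90 ± 0.092 with shDBD. KRT8 fell by 0.30 with ΔNp63α (SE 0.099) but rose by 0.41 ± 0.099 with TAp63γ, and it fell by 0.51 with shTA (SE 0.12). The mean of the 8 luminal markers was 7.86 to 7.90 with the shRNA vector and 8.02 to 8.04 with shDBD. It was 7.29 to 7.37, 7.12 to 7.18 and 7.26 to 7.31 in the overexpression arm. Of 6 fibroblast markers DCN rose by 2.37 ± 0.13 with shDBD and 0.83 ± 0.13 with shTA, with a list mean of 6.45 to 6.48 with the vector, 6.81 to 6.89 with shDBD and 6.55 to 6.63 with shTA. Of 4 immune markers CD14 rose by 1.27 ± 0.11 with shDBD, with a list mean of 6.37 to 6.41 with the vector and 6.74 to 6.77 with shDBD. CD14 fell by 0.48 and 0.55 with the isoforms (SE 0.091). The other fibroblast and immune markers did not pass with shDBD, and COL3A1, LUM and LYZ lay below the 20th percentile there and with its vector. The mean of 8 adipocyte markers was 5.48 to 5.55 with the empty vector, 5.53 to 5.59 with ΔNp63α and 5.59 to 5.64 with TAp63γ, with 5, 4 and 3 of the 8 below the 20th percentile, ADIPOQ among them in all 6 groups. FABP4, a fatty acid carrier on that list, rose by 0.57 ± 0.087 and 0.91 ± 0.087 from a level below that percentile. The actin probe sets, whose difference between the 3′ and 5′ ends reads RNA quality, gave a mean of -0.0868 with the shRNA vector, 0.0668 with shDBD and 0.102 with shTA, and 0.17, 0.162 and 0.0772 in the overexpression arm. The part of these markers and of RNA quality in the results was not tested.

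Cells make cholesterol from acetyl-CoA through mevalonate, farnesyl diphosphate, squalene and lanosterol, and they make fatty acids from the same acetyl-CoA. Both routes are switched on by the sterol regulatory element-binding proteins, the products of SREBF1 and SREBF2, which are held in the endoplasmic reticulum by SCAP and the INSIG proteins while sterols are plentiful. At many of these promoters the factors are known to act together with NF-Y, which binds the CCAAT box, and with SP1, which binds GC-rich boxes.

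The stretches before the transcription start were read from RefSeq promoters (GRCh38.p14) for 27 of the 31 named genes. These are not the same 27 as the measured genes. They include CYP51A1, FADS1 and STARD4, and they lack the measured ACAT2, SQLE and FASN. In the 250 bases before the start, CCAAT or its opposite-strand form ATTGG stood in 12 of 15 sterol genes (80%), in 2 of 6 fatty acid genes (33.3%) and in 17 of all 27 (63%), against 33% of 27305 promoters. The GC box GGGCGG, opposite strand CCGCCC, stood in 25 of the 27 (92.6%) and in 42.3% of all promoters. A sterol element spelled TCACNCCAC, opposite strand GTGGNGTGA, stood in 1 of the 27, SREBF2, and in 0.875% of all promoters. Both strands were searched, and a match is a description of letters only. The 27305 promoters are those of all symbols listed, not only of the 11963 measured genes, each with the first start listed. They were not matched to the 27 in expression or gene type. The 4 stretches below are shown because HMGCS1 had the largest rise with ΔNp63α, NSDHL and SCD were genes in which the isoforms differed, and SREBF2 held the sterol element. Capitals mark CCAAT boxes, read on either strand, and the sterol element, and each runs 5′ to 3′ towards the start site.

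HMGCS1 (chr5:43313413-43313662, minus strand): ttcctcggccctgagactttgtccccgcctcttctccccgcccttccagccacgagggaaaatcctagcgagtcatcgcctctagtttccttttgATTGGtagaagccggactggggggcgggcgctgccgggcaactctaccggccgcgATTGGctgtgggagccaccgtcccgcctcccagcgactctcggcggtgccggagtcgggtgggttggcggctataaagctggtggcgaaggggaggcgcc

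NSDHL (chrX:152830813-152831062, plus strand): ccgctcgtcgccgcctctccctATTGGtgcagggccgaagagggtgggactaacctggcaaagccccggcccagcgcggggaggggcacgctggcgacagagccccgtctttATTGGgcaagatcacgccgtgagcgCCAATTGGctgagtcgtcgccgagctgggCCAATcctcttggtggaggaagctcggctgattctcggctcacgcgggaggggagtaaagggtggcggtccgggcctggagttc

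SCD (chr10:100346983-100347232, plus strand): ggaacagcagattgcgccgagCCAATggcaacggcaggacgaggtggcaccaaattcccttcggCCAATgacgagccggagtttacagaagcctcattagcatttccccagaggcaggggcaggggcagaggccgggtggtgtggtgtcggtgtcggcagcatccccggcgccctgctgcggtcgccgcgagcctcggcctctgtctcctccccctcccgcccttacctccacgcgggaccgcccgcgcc

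SREBF2 (chr22:41832855-41833104, plus strand): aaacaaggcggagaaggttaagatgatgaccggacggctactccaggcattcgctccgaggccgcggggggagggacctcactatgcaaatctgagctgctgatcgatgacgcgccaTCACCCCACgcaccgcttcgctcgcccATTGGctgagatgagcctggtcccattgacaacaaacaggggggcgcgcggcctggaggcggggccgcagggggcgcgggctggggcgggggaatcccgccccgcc

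HMGCS1 held 2 CCAAT boxes, the nearer beginning 100 bases before the start. NSDHL held 5, of which 2 on opposite strands, at 113 and 110 bases, share letters and run together in the capitals. MVK also held 5, and SCD held 2, the nearer at 186 bases. In SREBF2 the sterol element began 133 bases and the CCAAT box 106 bases before the start.

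The overexpression comparisons ask which genes change when an isoform of p63 is raised. With ΔNp63α, 17 of the 27 lipid synthesis genes rose, 2 fell and 8 did not pass, where 28.9% of all genes were called, 12.3% higher and 16.6% lower. Their median change was 0.44, against 0.00 for all genes, and 5 changed at least 2-fold. The treated and vector arrays did not overlap in 19 of the 27, against 36.5% of all genes. With TAp63γ, 17 rose, 2 fell and 8 did not pass, where 43.4% of all genes were called, 20.5% higher and 22.8% lower. The median was 0.73, against -0.02 for all genes, and 10 changed at least 2-fold. The arrays did not overlap in 20 of the 27, against 49.9% of all genes. In these bulk samples fewer cells of a type and less RNA per cell cannot be told apart. Both comparisons share the empty vector arrays.

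**Figure D1:**
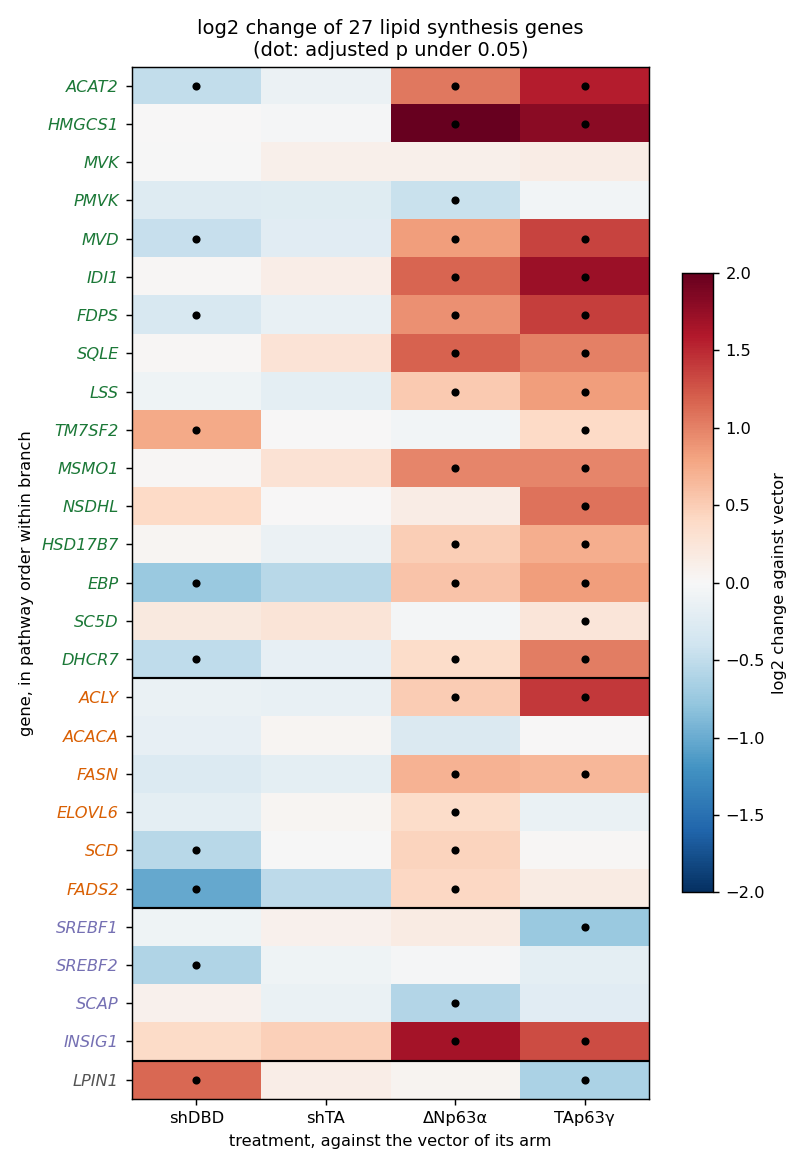
Log2 change of the 27 measured genes (rows, in pathway order; label colours mark the sterol, fatty acid, regulator and lipid handling genes) against the vector of their arm for shDBD, shTA, ΔNp63α and TAp63γ (columns). Red is higher, blue is lower and a dot marks an adjusted p under 0.05: most sterol rows are red in both overexpression columns, with 11 and 14 of 16 called higher and PMVK called lower with ΔNp63α, and the shTA column has no dot.

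The sterol branch held most of the genes that rose. Of its 16 measured enzymes, 11 rose and 1 fell with ΔNp63α (median 0.54), and 14 rose and 0 fell with TAp63γ (median 0.99). The called share was 75% and 87.5%, against 28.9% and 43.4% of all genes. The mean of the 16 genes, relative to the vector mean, was 0.63, 0.66 and 0.54 on the ΔNp63α arrays and 0.91, 0.93 and 0.97 on the TAp63γ arrays, while the vector arrays lay between -0.03 and 0.04. The 3 groups of arrays did not overlap in this mean.

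HMGCS1, which condenses acetoacetyl-CoA to HMG-CoA at the head of the mevalonate pathway, read 8.08, 7.38 and 7.77 with the empty vector. It read 9.48, 9.68 and 10.07 with ΔNp63α and 9.27, 9.76 and 9.59 with TAp63γ. All 6 treated arrays lay above the 3 vector arrays, and the treated groups overlapped each other. The rise was 2.0 ± 0.17 with ΔNp63α (4-fold, adjusted p = 3.97e-07) and 1.80 ± 0.17 with TAp63γ (3.47-fold, adjusted p = 4.62e-07), the largest among the 27 genes in both comparisons. A second HMGCS1 probe set rose by 1.60 ± 0.15 and 2.21 ± 0.15, so the order of the isoforms differed between the probe sets.

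ACAT2, the cytosolic thiolase that supplies acetoacetyl-CoA, read 8.95, 9.07 and 8.80 with the vector, 10.07, 10.20 and 9.73 with ΔNp63α and 10.47, 10.46 and 10.58 with TAp63γ. The 3 groups formed separate steps, and the rises were 1.06 ± 0.11 and 1.57 ± 0.11 (adjusted p = 2.21e-06 and 1.17e-08). Of the kinases that phosphorylate mevalonate, MVK passed in neither comparison (0.10 ± 0.066 and 0.15 ± 0.066, adjusted p = 0.284 and 0.0844), although its other 2 probe sets rose in both. PMVK, the next kinase, fell by 0.45 with ΔNp63α (SE 0.1, adjusted p = 0.0036) and was unlike its neighbours in direction. With TAp63γ it gave -0.05 ± 0.1. MVD, which decarboxylates the product to isopentenyl diphosphate, rose by 0.84 ± 0.085 and 1.35 ± 0.085.

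IDI1, which isomerizes isopentenyl diphosphate, read 9.54, 9.53 and 9.66 with the vector, 10.82, 10.78 and 10.64 with ΔNp63α and 11.23, 11.28 and 11.34 with TAp63γ. These arrays again stood in 3 separate steps, with rises of 1.17 ± 0.074 (2.25-fold) and 1.71 ± 0.074 (3.27-fold; adjusted p = 1.19e-08 and 5.43e-11). FDPS, the synthase of farnesyl diphosphate, rose by 0.91 ± 0.065 and 1.39 ± 0.065. SQLE, the squalene epoxidase, rose by 1.18 ± 0.076 and 1.01 ± 0.076, and LSS, which closes the ring to lanosterol, by 0.52 ± 0.09 and 0.83 ± 0.09.

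**Figure D2:**
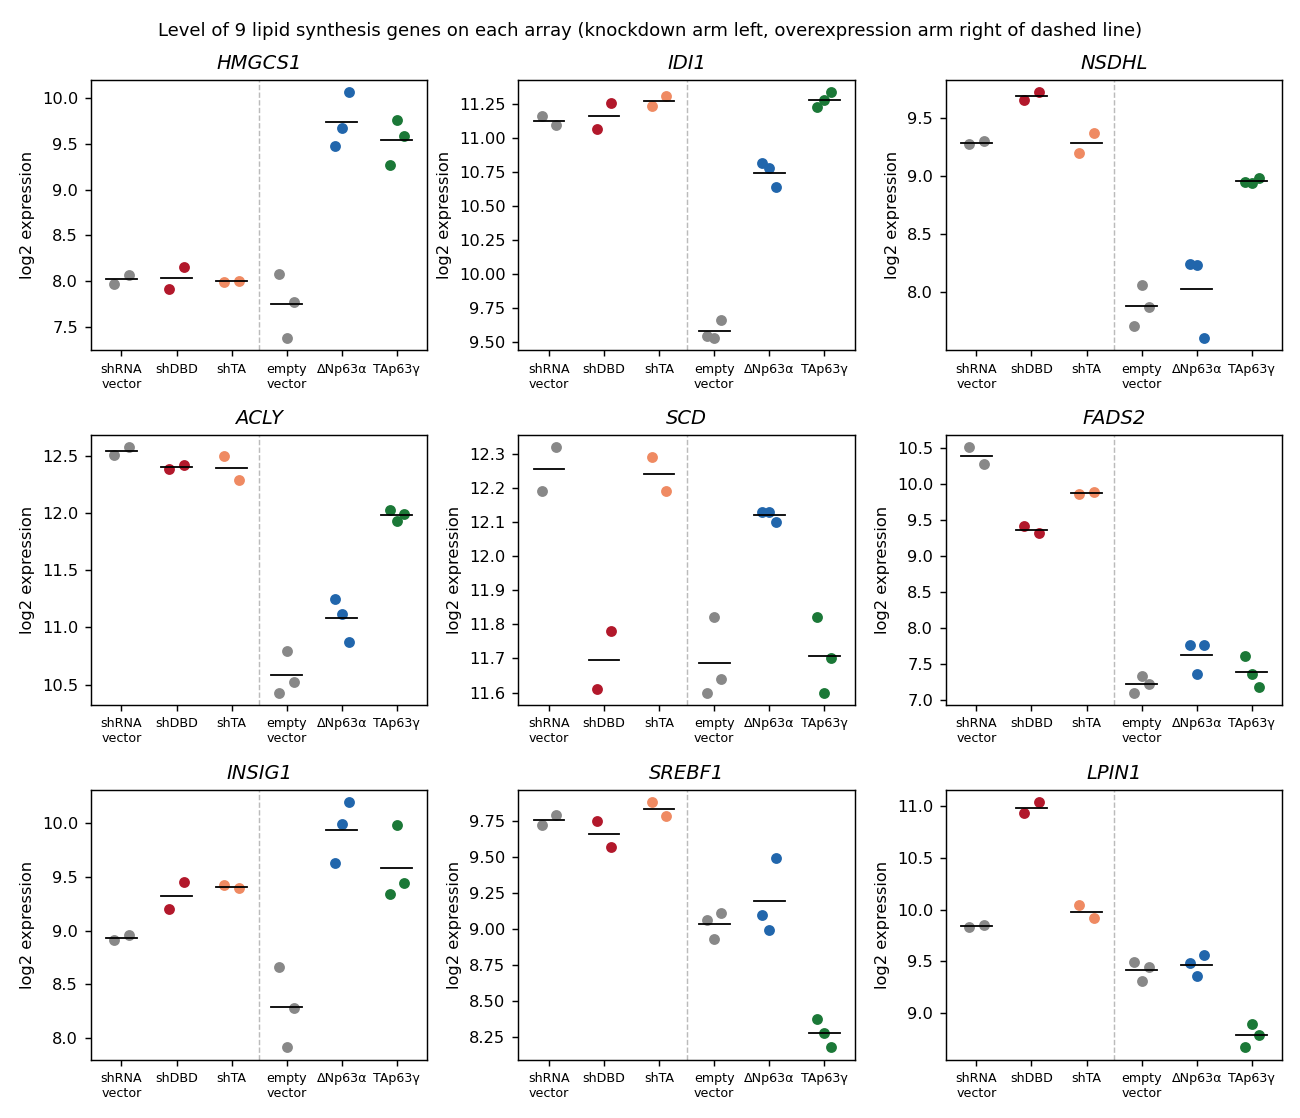
Log2 expression (vertical axes, each with its own range, not starting at 0) of 9 genes on every array, by group, with a line at each group's mean; the dashed line parts the knockdown arm from the overexpression arm. HMGCS1 and INSIG1 are high with both isoforms, IDI1, NSDHL and ACLY are highest of the overexpression arm with TAp63γ, SCD is high with ΔNp63α and low with shDBD, and LPIN1 is high with shDBD.

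Of the enzymes that turn lanosterol into cholesterol, all 7 measured ones rose with TAp63γ. With ΔNp63α 4 of the 7 rose: MSMO1, HSD17B7, EBP and DHCR7. Between the isoforms 4 of the 7 differed: TM7SF2, NSDHL, SC5D and DHCR7. MSMO1, a sterol methyl oxidase, rose by 0.97 ± 0.078 with each isoform. NSDHL, a dehydrogenase of the demethylation step, read 7.71, 8.06 and 7.87 with the vector, 8.24, 8.23 and 7.61 with ΔNp63α and 8.95, 8.94 and 8.98 with TAp63γ. Replicate 3 of ΔNp63α was the lowest of the 9, and the TAp63γ arrays stood above all others. The change was 0.15 ± 0.14 with ΔNp63α (adjusted p = 0.484) and 1.08 ± 0.14 with TAp63γ (2.11-fold, adjusted p = 9.14e-06). Without ΔNp63α replicate 3 the former was 0.36 and passed (adjusted p = 0.00894). A second NSDHL probe set rose by 0.39 ± 0.084 and 1.29 ± 0.084.

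TM7SF2, a sterol reductase, gave -0.06 ± 0.088 with ΔNp63α and rose by 0.40 ± 0.088 with TAp63γ. HSD17B7, a sterol ketone reductase, rose by 0.49 ± 0.099 and 0.73 ± 0.099, and EBP, the sterol isomerase, by 0.57 ± 0.12 and 0.84 ± 0.12. SC5D, a sterol desaturase, gave -0.04 ± 0.086 with ΔNp63α and rose by 0.24 ± 0.086 with TAp63γ (adjusted p = 0.0372), a call that was lost without vector replicates 1, 2 or 3 or TAp63γ replicates 2 or 3 (0.20 to 0.25, adjusted p = 0.0659 to 0.139) and over the mean of its probe sets (0.05, adjusted p = 0.638). DHCR7, which reduces the last double bond of one route to cholesterol, rose by 1.03 ± 0.12 with TAp63γ and by 0.37 ± 0.12 with ΔNp63α (adjusted p = 0.0278). In the latter the arrays overlapped. The call was lost without vector replicates 1 or 3 or ΔNp63α replicates 1 or 2 (0.30 to 0.32, adjusted p = 0.0911 to 0.113). It was also lost with the arms fitted separately (0.37, adjusted p = 0.0699). A second DHCR7 probe set rose by 0.48 ± 0.095 in that comparison.

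Of the 6 measured fatty acid genes, 5 rose with ΔNp63α (median 0.42), and 2 rose with TAp63γ (median 0.09), with none lower. The called share was 83.3% with ΔNp63α, against 28.9% of all genes. With TAp63γ it was 33.3%, below the 43.4% of all genes. Over the mean of all probe sets of each gene the medians were 0.30 and 0.22. The branch mean per array, relative to the vector, was 0.41, 0.31 and 0.34 with ΔNp63α. It was 0.47, 0.29 and 0.30 with TAp63γ, so these arrays overlapped in the mean. In the branch median per array they did not, at 0.39 to 0.49 with ΔNp63α and 0.00 to 0.27 with TAp63γ. Single genes of the branch differed between the isoforms in both directions. ACLY, which cuts citrate to cytosolic acetyl-CoA for both branches, read 10.43, 10.79 and 10.52 with the vector, 11.25, 11.12 and 10.87 with ΔNp63α and 12.03, 11.93 and 11.99 with TAp63γ. Its rise was 0.50 ± 0.1 with ΔNp63α (adjusted p = 0.00139) and 1.41 ± 0.1 with TAp63γ (2.65-fold, adjusted p = 1.8e-08). Its other 2 probe sets gave 0.44 ± 0.23 and 0.42 ± 0.18 with ΔNp63α, neither called, and over the mean of all 3 the ΔNp63α rise was 0.45 and did not pass (adjusted p = 0.055).

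FASN, the fatty acid synthase, read 8.74, 9.12 and 8.78 with the vector, 9.56, 9.40 and 9.75 with ΔNp63α and 9.97, 9.32 and 9.33 with TAp63γ. It rose by 0.69 ± 0.17 and 0.66 ± 0.17 (adjusted p = 0.00671 and 0.00554), and the treated groups overlapped. A second, dimmer FASN probe set gave -0.11 ± 0.11 and -0.04 ± 0.11, neither called. ACACA, the carboxylase that makes malonyl-CoA, passed in neither comparison (-0.29 ± 0.13 and 0.00 ± 0.13).

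SCD, the desaturase that puts the first double bond into saturated chains, read 11.60, 11.82 and 11.64 with the vector, 12.13, 12.13 and 12.10 with ΔNp63α and 11.82, 11.60 and 11.70 with TAp63γ. The ΔNp63α arrays lay above all others, and the TAp63γ arrays covered the range of the vector. SCD rose by 0.44 ± 0.078 with ΔNp63α (1.35-fold, adjusted p = 0.000505) and gave 0.02 ± 0.078 with TAp63γ (adjusted p = 0.865). The other 3 SCD probe sets gave 0.39 (called), 0.14 and 0.21 with ΔNp63α and 0.22, 0.26 and 0.34, none called, with TAp63γ, and over the mean of all its probe sets the ΔNp63α rise was 0.30 and did not pass (adjusted p = 0.172).

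ELOVL6, which elongates saturated chains, rose by 0.37 ± 0.13 with ΔNp63α (adjusted p = 0.0429) and gave -0.13 ± 0.13 with TAp63γ. FADS2, the first desaturase of polyunsaturated fatty acid synthesis, rose by 0.41 ± 0.12 with ΔNp63α (adjusted p = 0.0215) and gave 0.17 ± 0.12 with TAp63γ. Both ΔNp63α calls were lost with the arms fitted separately (0.37 and 0.41, adjusted p = 0.0776 and 0.0508). With values floored at the 20th percentile that of ELOVL6 was lost too (adjusted p = 0.0551). Both also rest on few arrays. That of ELOVL6 was lost without vector replicates 2 or 3, ΔNp63α replicates 2 or 3, or any of 4 knockdown arrays that enter only the shared variance (shRNA vector replicates 1 and 2, shTA replicates 1 and 2), at 0.27 to 0.38 with adjusted p = 0.0519 to 0.17. That of FADS2 was lost without vector replicates 1 or 3 or ΔNp63α replicates 1 or 3 (0.34 to 0.41, adjusted p = 0.0561 to 0.0844).

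The 4 regulators did not move together. INSIG1, which retains SCAP in the endoplasmic reticulum and is itself a known target of the pathway, read 8.66, 7.91 and 8.28 with the vector, 9.63, 9.99 and 10.20 with ΔNp63α and 9.34, 9.98 and 9.44 with TAp63γ. All treated arrays lay above the vector, with rises of 1.66 ± 0.19 (3.15-fold, adjusted p = 6.68e-06) and 1.31 ± 0.19 (2.47-fold, adjusted p = 3.26e-05). Its other 2 probe sets rose by 1.47 and 1.30 with ΔNp63α and by 1.5 and 1.34 with TAp63γ.

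SREBF1, whose product mainly drives fatty acid genes, read 9.06, 8.93 and 9.11 with the vector, 9.10, 8.99 and 9.49 with ΔNp63α and 8.38, 8.28 and 8.18 with TAp63γ. The TAp63γ arrays lay below all others. SREBF1 fell by 0.75 with TAp63γ (SE 0.11, adjusted p = 4.89e-05), in the comparison in which FASN rose, and gave 0.16 ± 0.11 with ΔNp63α. SREBF2, whose product mainly drives sterol genes, passed in neither comparison (-0.03 ± 0.12 and -0.19 ± 0.12), and its second probe set fell by 0.43 with TAp63γ (SE 0.11). SCAP, the escort of both factors, fell by 0.58 with ΔNp63α (SE 0.12, adjusted p = 0.00183) and gave -0.22 ± 0.12 with TAp63γ. Without TAp63γ replicate 1 both passed in that comparison, SREBF2 at -0.33 (adjusted p = 0.0294) and SCAP at -0.37 (adjusted p = 0.0151), and with array weights both passed at -0.32 and -0.23 (adjusted p = 0.00252 and 0.016).

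LPIN1, a phosphatidate phosphatase of glycerolipid synthesis that also acts in the nucleus, read 9.49, 9.31 and 9.45 with the vector, 9.48, 9.36 and 9.56 with ΔNp63α and 8.67, 8.90 and 8.79 with TAp63γ. It gave 0.05 ± 0.084 with ΔNp63α and fell by 0.63 with TAp63γ (SE 0.084, adjusted p = 1.41e-05).

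**Figure D3:**
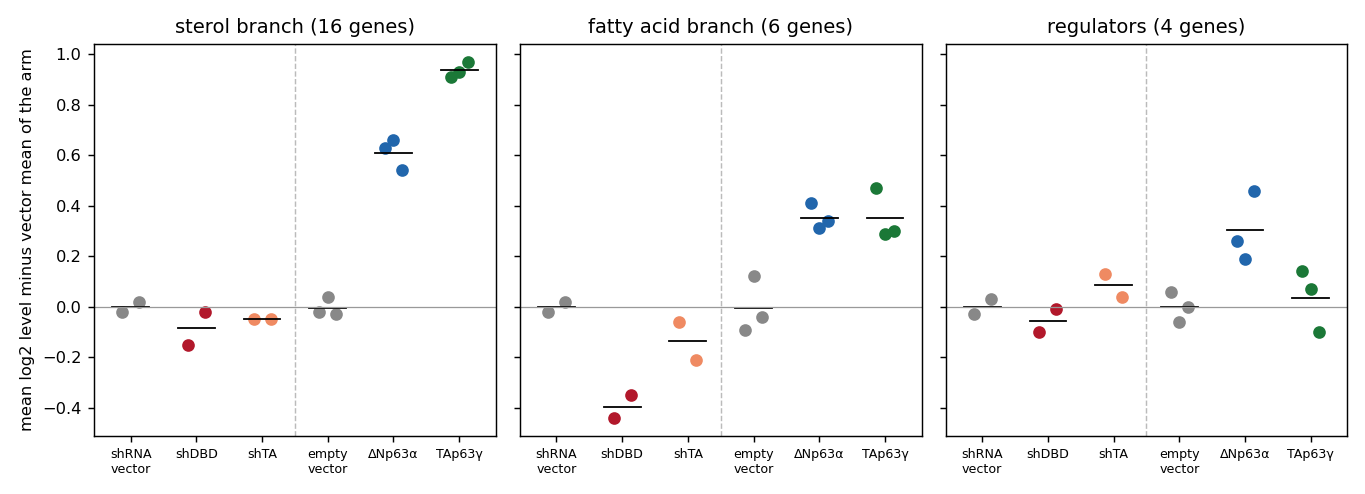
Mean log2 level of the 16 sterol, 6 fatty acid and 4 regulator genes on each array, minus the mean of the vector arrays of the same arm (vertical axis), by group, with a line at each group's mean; the dashed line parts the arms. The sterol mean steps up from the empty vector to ΔNp63α to TAp63γ without overlap, the fatty acid mean is alike for both isoforms and lowest with shDBD, and the regulator means of the 2 isoforms do not overlap, at 0.19 to 0.46 and -0.10 to 0.14. The medians per array, not drawn, read otherwise. For ΔNp63α and TAp63γ they were 0.39 to 0.49 and 0.00 to 0.27 in the fatty acid genes, and -0.12 to 0.27 and -0.35 to 0.07 in the regulators.

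The isoforms were then set against each other directly. Of the 27 genes, 12 were lower and 4 higher with ΔNp63α than with TAp63γ, and 11 did not pass, where 39.8% of all genes were called, 19.2% higher and 20.6% lower. The arrays of the isoforms did not overlap in 19 of the 27, against 45.8% of all genes. In the sterol branch 10 of 16 were lower with ΔNp63α and 0 higher (median -0.36), the furthest being NSDHL (-0.93 ± 0.14), DHCR7 (-0.66 ± 0.12), IDI1 (-0.54 ± 0.074), MVD (-0.51 ± 0.085) and ACAT2 (-0.51 ± 0.11). In the fatty acid branch ACLY was lower with ΔNp63α (-0.91 ± 0.1, adjusted p = 4.11e-06), and ELOVL6 (0.50 ± 0.13, adjusted p = 0.00537) and SCD (0.42 ± 0.078, adjusted p = 0.000489) were higher. The SCD difference was 0.09 over the mean of all its probe sets and did not pass (adjusted p = 0.696).

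Among the regulators SREBF1 was higher with ΔNp63α (0.91 ± 0.11, 1.88-fold, adjusted p = 1.14e-05) and SCAP was lower (-0.35 ± 0.12, adjusted p = 0.0297). LPIN1 was higher with ΔNp63α (0.68 ± 0.084, adjusted p = 1.15e-05). For the genes that did not pass, the 95% intervals of the difference between the isoforms were -0.17 to 0.57 for HMGCS1, -0.17 to 0.17 for MSMO1, -0.34 to 0.40 for FASN and -0.05 to 0.75 for INSIG1. A second HMGCS1 probe set was lower with ΔNp63α (-0.61 ± 0.15, adjusted p = 0.00499), as were both other EBP probe sets (-0.40 and -0.39).

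Some of these differences rest on single arrays. That of LSS was -0.22 without TAp63γ replicate 1 (adjusted p = 0.0543), and that of SC5D was -0.24 without ΔNp63α replicate 1 or TAp63γ replicate 3 (adjusted p = 0.0627 and 0.0768). That of SCAP did not pass without ΔNp63α replicates 2 or 3 or TAp63γ replicate 1 (-0.33 to -0.21, adjusted p = 0.0686 to 0.156). It did not pass with the arms fitted separately either (-0.35, adjusted p = 0.0779). Others passed when 1 array was left out. Without TAp63γ replicate 1 HSD17B7 was at -0.36 (adjusted p = 0.00537) and SQLE at 0.22 (adjusted p = 0.0479). Without ΔNp63α replicate 2 SQLE was at 0.26 (adjusted p = 0.011) and ACACA at -0.38 (adjusted p = 0.0451). Without ΔNp63α replicate 1 EBP was at -0.34 (adjusted p = 0.0465), and without TAp63γ replicate 2 INSIG1 was at 0.54 (adjusted p = 0.03).

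**Figure D4:**
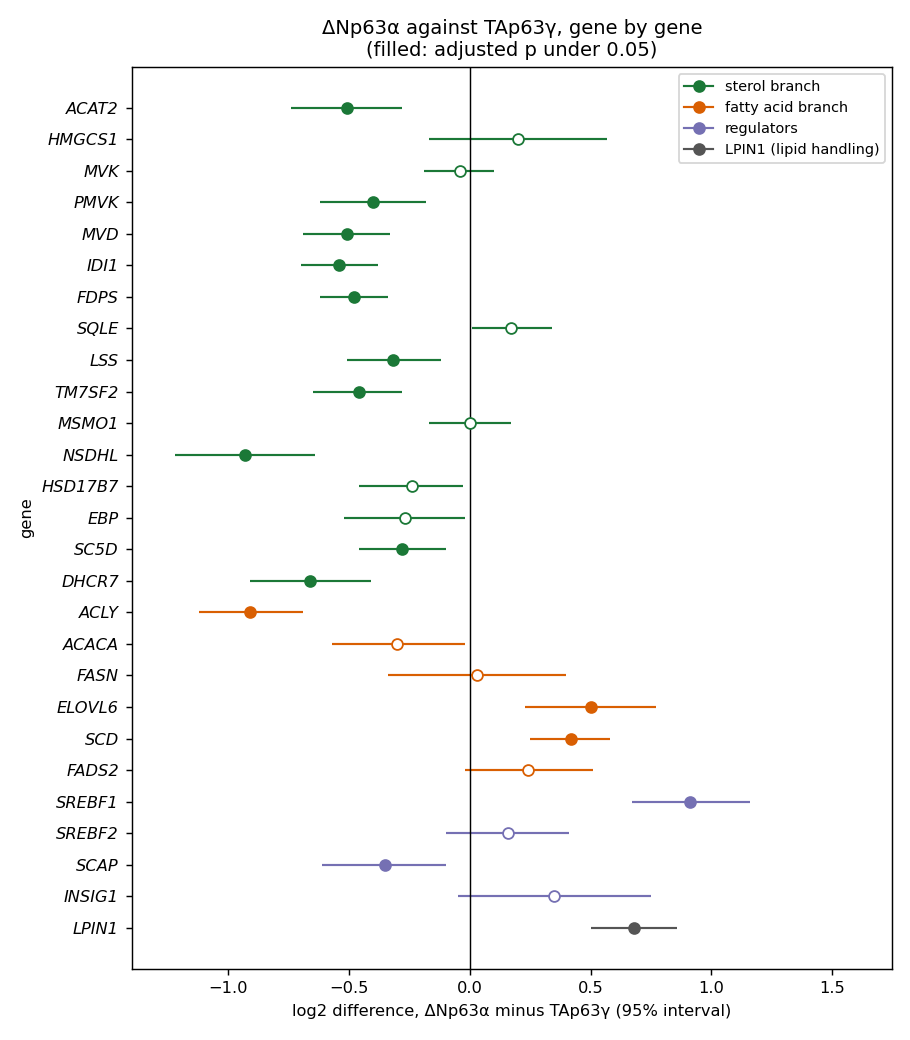
Log2 difference of ΔNp63α minus TAp63γ (horizontal axis, point) with its 95% interval (line) for each of the 27 genes, coloured by branch; filled points have an adjusted p under 0.05. The filled sterol points, ACLY and SCAP lie left of 0, and ELOVL6, SCD, SREBF1 and LPIN1 lie right of 0.

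The knockdown comparisons ask which genes change when p63 is lowered, and both hairpins share the shRNA vector arrays. With shDBD, 8 of the 27 genes fell, 2 rose and 17 did not pass, where 21.3% of all genes were called, 11.1% higher and 10.2% lower. The median of the 27 was -0.09, against 0.00 for all genes, and the arrays did not overlap in 18 of the 27, against 61.7% of all genes. In the sterol branch 5 fell and 1 rose (median 0.00), in the fatty acid branch 2 of 6 fell (median -0.24), and SREBF2 was the regulator that fell. Without shRNA vector replicate 2 or without shDBD replicate 1, 6 of the 27 were called, 4 lower and 2 higher. The calls lost in both cases were those of ACAT2 (-0.45 and -0.45), FDPS (-0.27 and -0.26), DHCR7 (-0.45 and -0.41) and SREBF2 (-0.56 and -0.43), with adjusted p = 0.0681 to 0.166. Without shRNA vector replicate 1, DHCR7 alone was lost (-0.57, adjusted p = 0.0534).

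FADS2 had the largest fall. It read 10.51 and 10.27 with the vector, 9.41 and 9.31 with shDBD and 9.86 and 9.88 with shTA, so the 3 groups did not overlap. The fall with shDBD was 1.03 on the log2 scale (SE 0.15, 2.04-fold lower, adjusted p = 0.000141). SCD read 12.19 and 12.32 with the vector, 11.61 and 11.78 with shDBD and 12.29 and 12.19 with shTA, and it fell by 0.56 with shDBD (SE 0.095, adjusted p = 0.000474). Its other 3 probe sets fell by 0.60, 1.01 and 0.88.

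EBP read 11.59 and 11.56 with the vector and 10.68 and 10.99 with shDBD, which was the largest fall of the sterol branch at -0.75 ± 0.14 (adjusted p = 0.00113). DHCR7 fell by 0.51 (SE 0.14), ACAT2 by 0.50 (SE 0.13), MVD by 0.46 (SE 0.1) and FDPS by 0.32 (SE 0.08). HMGCS1, IDI1, SQLE and MSMO1, which rose with both isoforms, gave 0.01 ± 0.21, 0.03 ± 0.091, 0.03 ± 0.093 and 0.02 ± 0.096 with shDBD. For HMGCS1 the probe sets disagreed, since its second one rose by 0.96 ± 0.19 with shDBD (adjusted p = 0.00175).

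SREBF2 read 10.06 and 10.14 with the vector and 9.33 and 9.67 with shDBD, a fall of 0.60 (SE 0.15, adjusted p = 0.00831), and its second probe set fell by 0.68. SREBF1, SCAP and INSIG1 gave -0.09 ± 0.14, 0.08 ± 0.15 and 0.39 ± 0.23. The 2 genes that rose were LPIN1 and TM7SF2. LPIN1 read 9.83 and 9.85 with the vector and 10.93 and 11.04 with shDBD, a rise of 1.15 ± 0.1 (2.21-fold, adjusted p = 1e-06), and its other 2 probe sets rose by 1.18 and 1.11. TM7SF2 read 7.99 and 8.02 with the vector and 8.64 and 8.90 with shDBD, a rise of 0.76 ± 0.11 (1.7-fold, adjusted p = 8.9e-05).

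With shTA, 0 of the 27 genes were called by limma, where 2.29% of all genes were, 1.44% higher and 0.853% lower. The arrays did not overlap in 17 of the 27, against 50.7% of all genes. At an unadjusted p under 0.05 there were 6 of the 27, against 13.2% of all genes. The nearest to a call were EBP (-0.56 ± 0.14, adjusted p = 0.0538) and FADS2 (-0.52 ± 0.15, adjusted p = 0.102), and in both the arrays lay below the vector arrays. The alternatives gave 0 to 5 called genes. A call of EBP appeared without empty vector replicate 2 or without ΔNp63α replicate 3, arrays that enter only the shared variance.

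Between the hairpins, which share no arrays, 5 of the 27 genes differed (18.5%), close to the 18.4% of all genes, of which 9.14% were higher and 9.23% lower with shDBD. The arrays of the hairpins did not overlap in 19 of the 27, against 60.3% of all genes. SCD (-0.55 ± 0.095), SREBF2 (-0.52 ± 0.15) and FADS2 (-0.51 ± 0.15) were lower with shDBD, and LPIN1 (1.0 ± 0.1) and TM7SF2 (0.76 ± 0.11) were higher. The count was 3 without shDBD replicate 1 or shTA replicate 1, where FADS2 (-0.56 and -0.52) and SREBF2 (-0.35 and -0.42) were lost, and 4 without the other array of either group, where FADS2 was lost (-0.46 and -0.50). It was 9 without ΔNp63α replicate 3. For EBP the 95% interval of the difference between the hairpins was -0.49 to 0.11.

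Knockdown and overexpression use different controls, so their calls can be set side by side. Of the 8 genes that fell with shDBD, 7 rose with ΔNp63α: ACAT2, MVD, FDPS, EBP, DHCR7, SCD and FADS2. They are 87.5% of the 8 and 41.2% of the 17, where 3.27% of all genes were lower with shDBD and higher with ΔNp63α. Some of these calls were lost under alternatives given above. They are those of ACAT2, FDPS and DHCR7 with shDBD, and of DHCR7, SCD and FADS2 with ΔNp63α. Over all genes, 391 were shared, 32% of the 1220 that fell and 26.6% of the 1469 that rose. With TAp63γ, 5 of the 8 rose (62.5% of the 8 and 29.4% of the 17), and 379 of all genes were shared (3.17% of all genes, 31.1% of the 1220 and 15.4% of the 2456). Of all 27 genes, 17 rose with each isoform, whatever they did with shDBD. The 7 and 5 of the 8 therefore stand beside a high share of the whole part. SCD and FADS2 were not called with TAp63γ. Between the isoforms SCD differed, though not over the mean of its probe sets, as given above. FADS2 did not pass (0.24 ± 0.12, adjusted p = 0.141), but it passed without ΔNp63α replicate 2 (0.38, adjusted p = 0.0239) or TAp63γ replicate 1 (0.36, adjusted p = 0.0391). These shares are descriptions without a test, and no gene among the 27 was called in all 4 comparisons with a vector. MVK and ACACA were called in none of the 4.

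Neighbouring pathways were counted in the same way. Of 10 measured genes (of 12 named) that use isoprenoids for prenylation, ubiquinone and dolichol, 0 rose and 6 fell with ΔNp63α, and 2 rose and 7 fell with TAp63γ. The called share was 60% and 90%, against 28.9% and 43.4% of all genes, and 30% with shDBD, against 21.3%. GGPS1, which lengthens the FDPS product to geranylgeranyl diphosphate, fell by 0.67 (SE 0.075) and 1.14 (SE 0.075), and COQ2, of ubiquinone synthesis, by 0.52 (SE 0.083) and 1.07 (SE 0.083). With shDBD 2 rose and 1 fell, and COQ2 was the one that fell, by 0.33 (SE 0.1).

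Of 12 measured genes (of 13) that process the sterol factors or act with them in the nucleus, 0 rose and 6 fell with ΔNp63α, and 0 rose and 7 fell with TAp63γ. The called share was 50% and 58.3%, against 28.9% and 43.4% of all genes, of which 16.6% and 22.8% were lower. The subunits of NF-Y were among them. NFYA fell by 0.30 (SE 0.097) with ΔNp63α and by 0.98 (SE 0.097) with TAp63γ, NFYB by 1.04 (SE 0.11) with TAp63γ, and NFYC by 0.50 (SE 0.13) with ΔNp63α. SP1 gave -0.20 ± 0.091 and -0.10 ± 0.091, neither called. With shDBD 1 of the 12 was called (8.33%), below the 21.3% of all genes. It was FBXW7, a ubiquitin ligase subunit that marks the nuclear factors for decay, which rose by 0.65 ± 0.11.

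Of 17 measured genes (of 24) of fatty acid activation, NADPH supply and elongation, 1 rose and 4 fell with ΔNp63α, 4 rose and 4 fell with TAp63γ, 4 rose and 1 fell with shDBD, and 1 rose with shTA. The called share was 29.4% with ΔNp63α and 47.1% with TAp63γ, near the 28.9% and 43.4% of all genes, 29.4% with shDBD, against 21.3%, and 5.88% with shTA, against 2.29%. ME1, the malic enzyme that supplies NADPH, fell in 3 of these comparisons, by 0.77 (SE 0.11), 0.53 (SE 0.11) and 0.44 (SE 0.14) with ΔNp63α, TAp63γ and shDBD. SLC25A1, the carrier that exports citrate to ACLY, rose by 0.89 ± 0.1 with TAp63γ. ACSL1, which activates fatty acids, rose by 0.73 ± 0.14 with shDBD and by 0.58 ± 0.14 with shTA (adjusted p = 0.0416).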

How the data were processed

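Total RNA of 15 samples was hybridized to Affymetrix arrays of 22277 probe sets. The deposited values are log2 expression per probe set, made by the authors with RMA, per the submitters' processing notes; whether both arms were processed together is not given in the sources used here. RMA equalizes the arrays' distributions, so a shift shared by most transcripts would not be seen, and it compresses low levels. Control probe sets (62), those of several genes (1043) and those not listed in the platform annotation (2108) were left out, and the 19064 with 1 symbol gave 11963 genes, each read from its probe set with the highest mean. No column was left out as unmapped. Of the 31 genes, 2 had only probe sets shared with other genes and 2 had none listed. Of the 27 measured, 17 had more than 1 probe set, and 0 of their other probe sets was called opposite to the gene. Not all agreed, however. Where the gene was called, 10 of the other probe sets were called alike and 8 were not called with ΔNp63α. These counts were 15 and 3 with TAp63γ, 8 and 6 between the isoforms, 8 and 1 with shDBD, and 3 and 3 between the hairpins.

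Groups came from the labels. limma 3.58.1 (R 4.3.3) fitted 1 mean for each group to all 15 arrays (9 residual and 5.87 prior degrees of freedom, trend on the mean level), with two-sided tests and Benjamini-Hochberg adjustment over all genes in each of 6 comparisons at 0.05; the fit was tested on simulated data. Sharing the variance assumes that both arms vary alike, while the median residual SD was 0.0821 and 0.113. The number of arrays, 2 or 3 per group, limits the precision. Any of the 31 genes could be named; of each other list, up to 4 called genes with the largest change and 2 uncalled with the smallest adjusted p per comparison with a vector. Genes and lists were chosen with earlier results of these data known. Alternatives covered the probe set rule, variance prior, arms fitted separately, low values, normalization, array weights, a replicate block and leaving out each array. Same-numbered arrays of different groups deviated together at correlations of 0.0014 to 0.069 in the knockdown arm and -0.63 to 0.48 in the overexpression arm. The numbers were therefore not taken to pair them. Some differently numbered overexpression arrays also deviated together. Empty vector replicate 1 went with ΔNp63α replicate 3 (0.68) and TAp63γ replicate 2 (0.59). Empty vector replicate 2 went with ΔNp63α replicate 1 (0.63) and TAp63γ replicate 1 (0.52). Others went apart, to -0.73 for empty vector replicate 2 and ΔNp63α replicate 3. Arrays of different groups may thus not be independent, which was not modelled, and the cause was not tested. Promoter sequences are RefSeq's (GRCh38.p14). The transcript of the targeted gene is not reported here.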

Additional observations from a re-analysis of the deposited data

How the results depend on the processing

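Of 69 called values of the 27 genes over the 6 comparisons, 53 kept their direction and call under all 25 alternatives, 16 lost the call under at least 1 (6 of these only when an array was left out) and 0 were reversed. Of 93 values that did not pass, 29 passed under at least 1 alternative, and 28 changed sign while not passing, the largest of them 0.20 in size. The count of called genes with shDBD, 10, was 6 to 12 when single arrays were left out. With shTA, 0, it was 5 with the arms fitted separately, 1 with cyclic loess, 1 with quantile normalization, 4 with array weights and 0 to 1 without single arrays. Between the hairpins, 5, it was 8 over the mean of all probe sets, 11 with the arms fitted separately, 10 with array weights and 3 to 9 without single arrays. Without single arrays it was 16 to 19 for ΔNp63α (19), 18 to 21 for TAp63γ (19) and 15 to 18 between the isoforms (16). With the arms fitted separately it was 16 for ΔNp63α, 19 for TAp63γ and 15 between the isoforms. The cause of these moves was not tested. With the replicate number as a block, a pairing the check of deviations did not bear out, the counts were 10 with shDBD, 0 with shTA, 4 between the hairpins, 19 with ΔNp63α, 18 with TAp63γ and 16 between the isoforms; FADS2 between the hairpins (-0.51, adjusted p = 0.0518) and SC5D with TAp63γ (0.24, adjusted p = 0.0616) lost their calls. Other scalings moved the median of all genes by at most 0.02. Of the branch medians, that of the fatty acid genes between the isoforms was 0.14. It was 0.03 over the mean of all probe sets or without TAp63γ replicate 3. Without ΔNp63α replicate 2 it was 0.25, and without TAp63γ replicate 1 it was 0.30. Over the mean of all probe sets, the fatty acid median was 0.30 rather than 0.42 with ΔNp63α, and 0.22 rather than 0.09 with TAp63γ. The sterol median with ΔNp63α (0.54) was 0.64 with cyclic loess and 0.62 with array weights or without ΔNp63α replicate 3.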

Other observations

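The vector controls of the arms differed in the level of these genes. All 27 lay lower with the empty vector than with the shRNA vector, where 65.5% of all genes did, and 15 of them lay more than 1 lower on the log2 scale, against 11.9% of all genes. The median difference was -1.11 for the 27 and -0.27 for all genes. FASN read 8.88 with the empty vector and 12.46 with the shRNA vector, FADS2 7.21 and 10.39, and LSS 8.89 and 11.29. The arms were treated as normalized separately, so these differences carry no test, and vector, virus and array processing cannot be told apart here.

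A further list held targets of the liver X receptor (LXR) and genes of sterol efflux and esterification. Of its 18 measured genes (of 19), 7 rose and 2 fell with TAp63γ, and 1 rose and 3 fell with ΔNp63α. The called share was 50% and 22.2%, against 43.4% and 28.9% of all genes. LPCAT3, which remodels phospholipids, rose by 1.51 ± 0.13 with TAp63γ, and NPC2, which exports cholesterol from lysosomes, by 0.51 ± 0.085 with ΔNp63α and 0.84 ± 0.085 with TAp63γ. ABCG1, a sterol exporter, fell by 1.36 (SE 0.12) and 0.65 (SE 0.12). Of 11 measured fatty acid oxidation genes (of 12), 0 rose and 4 fell with ΔNp63α, 1 rose and 3 fell with TAp63γ, and 2 rose with shDBD. The called share was 36.4%, 36.4% and 18.2%, against 28.9%, 43.4% and 21.3% of all genes. One of the genes that fell with TAp63γ, PPARGC1A, lay below the 20th percentile in both groups (4.40 against 4.75). ECI1, of the oxidation of unsaturated chains, fell by 0.99 (SE 0.089) and 0.80 (SE 0.089) with the isoforms, ACADM, of medium chains, fell by 1.26 (SE 0.18) with TAp63γ, and CPT2, of the carnitine shuttle, rose by 0.73 ± 0.099 with shDBD and 0.76 ± 0.081 with TAp63γ. Of 13 measured glycerolipid and phospholipid genes (of 17), 4 rose and 2 fell with TAp63γ and 1 rose and 3 fell with ΔNp63α, a called share of 46.2% and 30.8%, near the 43.4% and 28.9% of all genes. PLIN3, a lipid droplet coat protein, rose by 0.66 ± 0.11 and 1.23 ± 0.11.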
